A study of Mus musculus with 23 samples.

Results

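The amino acid transporter genes examined here are the members of 7 families of solute carriers, Slc1, Slc3, Slc6, Slc7, Slc36, Slc38 and Slc43. They were taken by gene symbol from the platform's probe table. This rule used no measured values, but the carriers were chosen with earlier results of these data known. The set comprised 74 probes of 55 genes among the 24048 probes of the array, 19398 of which carried 1 gene symbol. The question was how these carriers differed between organs and with oil palm phenolics (OPP), a water-soluble extract of the oil palm fruit rich in phenolic acids. OPP mice received it as their drinking fluid, at 1500 ppm in gallic acid equivalents (GAE, the amount of gallic acid with the same phenolic content), over 6 weeks, in which control mice had distilled water. Both groups were male BALB/c mice, an inbred strain, aged 12 weeks at sampling, on the same normal diet, and their organs were taken after an overnight fast. RNA was hybridised to 23 Illumina MouseRef-8 Version 1 BeadChip arrays, from 3 OPP and 4 control livers, 4 OPP and 4 control spleens, and 4 OPP and 4 control hearts. The groups lived in separate cages, so that cage and OPP cannot be told apart, and the authors had removed outlier samples by clustering before deposit. The labels do not tie the organs of one mouse together, and the p-values measure the spread between these samples.

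These proteins carry amino acids and related small molecules across the cell membrane. Slc38 carriers bring in neutral amino acids together with sodium, and Slc38a2 (SNAT2) among them is the form known to be induced when amino acids are short and, in the liver, by glucagon. Slc7 carriers exchange amino acids and often need a heavy chain, Slc3a1 or Slc3a2, to reach the membrane. Slc1 carriers take up glutamate or small neutral amino acids, Slc36 carriers move amino acids with protons, and Slc6 carriers take up glycine, taurine, betaine, creatine or neurotransmitters with sodium and chloride, so that not every Slc6 cargo is an amino acid. In the liver this uptake feeds protein synthesis, the urea cycle and, during a fast, gluconeogenesis.

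The promoters of the 2 carriers with the largest OPP changes at an unadjusted p under 0.01, Slc38a2 in the liver and Slc6a4 in the spleen, are shown to place these genes in the genome. The RefSeq table (GRCm38.p6) held entries for 39 of the 55 genes, and Slc6a6 and Slc7a5 were not among them. The windows are the 250 bases before the transcription start, read 5′ to 3′ on the strand of the gene, at chr15:96699729-96699978 (minus strand) for Slc38a2 and chr11:76998347-76998596 (plus strand) for Slc6a4. Capitals mark matches to the GC box on either strand.
Slc38a2: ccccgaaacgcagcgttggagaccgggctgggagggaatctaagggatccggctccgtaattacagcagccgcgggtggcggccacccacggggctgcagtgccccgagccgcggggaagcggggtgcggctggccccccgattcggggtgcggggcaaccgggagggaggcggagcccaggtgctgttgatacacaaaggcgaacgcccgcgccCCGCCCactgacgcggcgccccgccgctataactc
Slc6a4: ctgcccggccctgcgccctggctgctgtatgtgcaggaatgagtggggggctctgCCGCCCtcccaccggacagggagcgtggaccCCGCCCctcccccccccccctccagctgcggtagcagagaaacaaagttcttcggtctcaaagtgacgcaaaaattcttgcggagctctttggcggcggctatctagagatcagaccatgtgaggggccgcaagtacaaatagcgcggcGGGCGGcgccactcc
The motifs searched on both strands were the C/EBP-ATF composite TGATGNAAN, through which many genes answer amino acid shortage, the CCAAT box CCAAT, the GC box GGGCGG, the TATA box TATAAA and the E-box CACGTG, and no motif contains another. The Slc38a2 window held 1 GC box, beginning 35 bases before the start, and the Slc6a4 window held 3, beginning 195, 164 and 15 bases before it. Neither window held a match to another of these motifs. Bases outside the windows, such as those within the genes, were not searched, so a match there would not have been seen. GC boxes were present in 32.7% of the 32851 windows of this length in the table and in 30 of the 60 windows of the carriers, and the C/EBP-ATF composite in 3.44% of all windows and in 3 of the 60, which belong to the cystine carrier Slc7a11 and to Slc7a7. These matches are descriptions of letters, not binding sites.

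Most carriers were too dim to be measured in these organs. A probe was tested in an organ where its detection p, the rank of its intensity among negative control beads, was under 0.01 on 3 or more arrays of the OPP or the control group. By this filter 29 probes of 27 genes were tested in at least 1 organ, 10 of them in all 3 organs, 5 in 2 organs and 14 in 1 organ. The other 45 probes were tested in no organ and included every probe of 28 genes, and 7 of these probes were detected on at least 1 array. Slc38a1, a close relative of Slc38a2, and Slc7a11 were detected on 0 arrays, and the cationic amino acid carrier Slc7a1 and the lysosomal proton-coupled carrier Slc36a1 on 1 array each, a control liver. Slc43a1 had no probe. By family, tested probes in liver, spleen and heart numbered 2, 3 and 3 of 9 for Slc1, 2 in each organ of 3 for Slc3, 6, 4 and 3 of 20 for Slc6, 3, 4 and 3 of 23 for Slc7, 0, 0 and 1 of 4 for Slc36, 5, 4 and 4 of 12 for Slc38, and 1 in each organ of 3 for Slc43. Probes detected on all 23 arrays were those of Slc6a6, Slc6a8 and Slc6a9 and 1 of the 2 probes each of Slc38a2, Slc3a2 and Slc43a3. A second Slc38a2 probe, scl46789.16_30-S, was detected on no liver array and had no value in spleen and heart, so Slc38a2 below means probe scl0002482.1_22-S.

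Between 5349 and 9785 probes were detected per array. OPP liver 3 had the fewest detected probes and the highest median raw intensity, 405.3 units against 174.2 to 207.5 on the other liver arrays. By this intensity every OPP liver (191.2 to 405.3) lay above every control liver (174.2 to 190.9), though OPP liver 1 was close to control liver 1. The heart arrays of the OPP group (59 to 64.9) all lay below those of the controls (68.5 to 73.2). The labelled organs carried their own markers. Of 9 hepatocyte genes on the array, 8 were detected on 3 or more liver arrays, 2 on as many spleen arrays and 6 on as many heart arrays. Alb and Fgb were detected on 0 spleen and heart arrays, while Apoa1, Cyp2e1 and Ahsg were detected on all 8 heart arrays and Serpina1a on all 8 spleen arrays, and Tat was detected on 1 liver array only. The hepatocyte sum was 220361 to 245954 intensity units in OPP livers and 209697 to 249696 in control livers, and at most 1651 in OPP hearts and 1545 in control hearts. In turn, 0 of 9 cardiomyocyte genes reached 3 detected arrays in liver or spleen. Of 6 B cell genes, 4 reached 3 detected arrays in spleen, 0 in liver and 1 in heart. Of 6 T cell genes, 5 did so in spleen and 0 in liver or heart. All 13 exocrine pancreas genes on the array were detected in spleen, with a summed level of 117364 to 264234 intensity units on OPP arrays and 149403 to 384196 on control arrays, against 1 of 13 in heart (337 to 368 and 334 to 357).

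In the liver, Slc38a2 was lower with OPP and had the smallest p of all probes tested there, and the taurine carrier Slc6a6 was lower at the unadjusted threshold of 0.01, but neither passed the adjustment for all probes. Values here are log2 intensities after background removal and normalisation within the organ, called organ-scale levels. Slc38a2 stood at 8.95, 8.93 and 9.28 in the OPP livers, against 10.71, 10.14, 10.41 and 10.90 in the control livers. All 3 OPP livers lay below all 4 control livers, and the gap between the groups was wider than the spread within either. Mean levels were 9.05 ± 0.20 (SD, n = 3) with OPP and 10.54 ± 0.34 (SD, n = 4) in controls, a log2 difference of -1.49 (SE 0.20, 95% interval -1.94 to -1.04), which is a level 2.81-fold lower. The limma p of 4.16e-05 was the smallest of 6434 probes tested, and the adjusted p was 0.25. An exact two-sided permutation test gave 0.0571, the smallest p that 3 against 4 arrays allow. In a fit of all 23 arrays, where the 6 groups share 1 estimate of the spread, the adjusted p was 7.35e-05 and 426 of 6419 liver probes were called, and over all alternatives it ranged from 7.35e-05 to 0.74. The log2 difference was -1.37 when control livers 3 and 4, which had the highest summed neutrophil markers, were both left out. It was between -1.62 and -1.37 when any 1 array was left out. Array background was higher on every OPP liver than on every control liver, and blood cell content differed between liver arrays. The part of either in the Slc38a2 result was not tested.

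**Figure D1:**
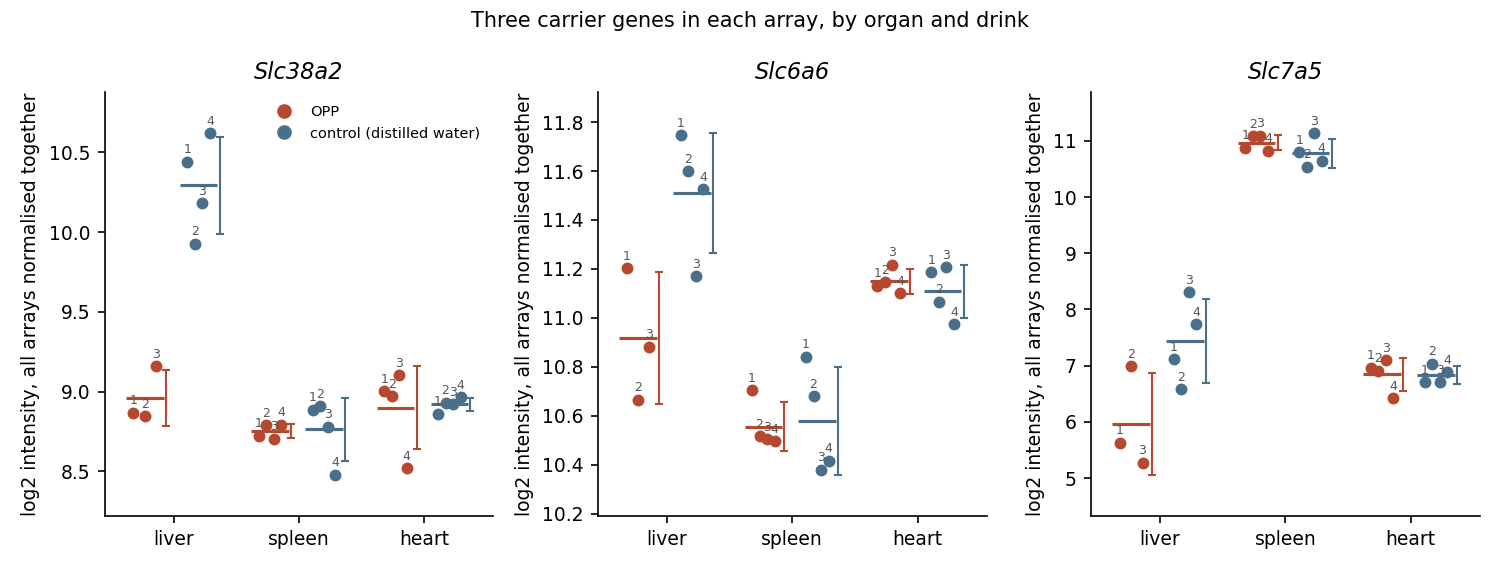
Log2 level of Slc38a2, Slc6a6 and Slc7a5 on each array (vertical axis, all 23 arrays normalised together) in OPP and control livers, spleens and hearts; points are arrays labelled by replicate, lines are group means and bars are SD. The 3 OPP livers sit near the level of the spleens and hearts for Slc38a2, while the control livers, at 9.93 to 10.62, stand above every other array.

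Slc6a6, which takes taurine into cells for bile acid conjugation and osmotic balance, was at 11.52, 10.95 and 11.17 in the OPP livers, against 12.11, 11.96, 11.48 and 11.88 in the control livers. OPP liver 1 lay above control liver 3, so the groups overlapped. The log2 difference was -0.64 (SE 0.19, 95% interval -1.07 to -0.22, limma p = 0.00799, adjusted p = 0.316, exact permutation p = 0.114). Leaving out OPP liver 2 or 3, or control liver 1, 2 or 4, brought its p above 0.01.

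Slc7a5 (LAT1), the light chain that exchanges leucine and other large neutral amino acids, was at 6.03, 6.99 and 5.77 in the OPP livers, against 7.11, 6.65, 8.33 and 7.72 in the control livers. It was detected on 1 of 3 OPP and 3 of 4 control livers, and OPP liver 2 lay above control liver 2. The log2 difference was -1.19 (SE 0.44, 95% interval -2.18 to -0.19, limma p = 0.0246, adjusted p = 0.39, exact permutation p = 0.114). The 2 control livers with the highest Slc7a5, 3 and 4, were also the 2 with the highest summed neutrophil markers. That sum, over 14 genes on the array of which 10 were detected, was 1705 to 25748 intensity units in OPP livers and 1835 to 85878 in control livers, with Mmp8 detected on 0 arrays. Its brightest gene in the liver was Lcn2, with a mean organ-scale level of 12.55, against 9.78 for S100a8 and 8.66 for S100a9. The part of the summed neutrophil markers in the Slc7a5 result was not tested.

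The heavy chain Slc3a2, the partner of Slc7a5, differed little with OPP, by a log2 of 0.12 (SE 0.16) at probe scl000473.1_5-S. Its other probe was detected on 0 liver arrays. The hepatic carriers of the same family as Slc38a2 had small differences too, with 0.08 (SE 0.19) for the glutamine carrier Slc38a3 and -0.32 (SE 0.32) and -0.09 for the 2 probes of Slc38a4, a carrier of neutral amino acids. The cationic amino acid carrier Slc7a2 differed by -0.26, the glutamate carrier Slc1a2 by -0.17 and the serine and alanine carrier Slc1a4 by -0.39 (SE 0.40). In all, 19 carrier probes of 18 genes were tested in the liver. With OPP 5 of them were higher and 14 lower in sign, with a median log2 difference of -0.17 against -0.03 over all probes tested. At an unadjusted p under 0.01, 2 carrier probes were lower and 0 higher, where 2.92% of all probes were called in either direction. At an adjusted p under 0.05 limma called 0 carriers and 0% of all probes. An unadjusted p under 0.05 was found for 3 carriers, against 719 of all 6434 probes tested in the liver. Only Slc38a2 had groups that did not overlap, as did 12.4% of all liver probes.

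**Figure D2:**
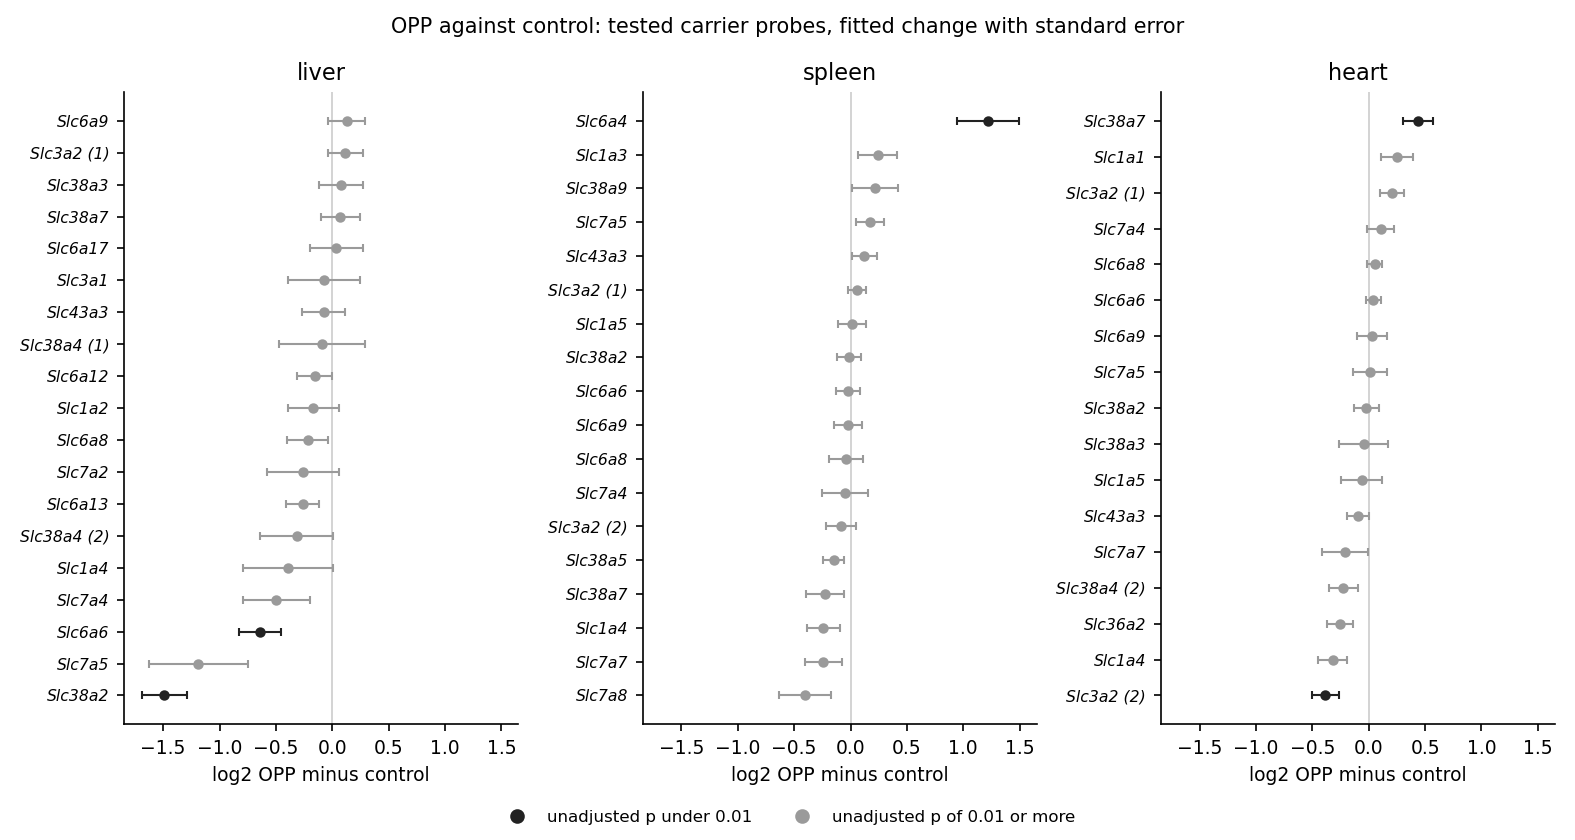
OPP minus control log2 change (horizontal axis) of each tested carrier probe in liver, spleen and heart; points are limma estimates and bars are SE, and Slc3a2 and Slc38a4 have 2 probes each. Slc38a2 in the liver (-1.49), Slc7a5 in the liver (-1.19) and Slc6a4 in the spleen (1.22) lie farthest from 0.

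In the spleen, 1 carrier passed the unadjusted threshold and none the adjusted one. It was the serotonin carrier Slc6a4, which was higher with OPP. This protein is known for taking serotonin into platelets and nerve endings. Organ-scale levels were 7.36, 7.88, 7.54 and 8.07 in the OPP spleens, against 7.16, 5.79, 6.72 and 6.31 in the control spleens. All 4 OPP spleens lay above all 4 control spleens, though OPP spleen 1 was close to control spleen 1. Means were 7.71 ± 0.32 with OPP and 6.49 ± 0.58 in controls (SD, n = 4 each), a log2 difference of 1.22 (SE 0.27, 95% interval 0.61 to 1.82), which is 2.33-fold higher. The limma p was 0.00114 and the adjusted p 0.474 (0.0386 to 1 over the alternatives), and the exact permutation test gave 0.0286, the smallest p that 4 against 4 arrays allow. Slc6a4 was detected on 4 OPP and 3 control spleens and on 0 liver or heart arrays.

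Platelet markers moved with Slc6a4, which is not in their list. All 8 of the 8 platelet genes on the array were detected in spleen and higher with OPP, and their median log2 difference was 1.22. At an unadjusted limma p under 0.01, 7 of them were called, against 1.69% of all spleen probes. The authors had already reported several of these genes, such as Vwf, Selp and Itga2b, as higher with OPP in these spleens. The list is therefore not independent of these data. Their summed level was 9493 to 13038 intensity units in OPP spleens and 3466 to 9295 in control spleens, and none of the 8 was undetected. On the log2 scale the sum was 13.21, 13.59, 13.28 and 13.67 in the OPP spleens, against 13.18, 11.76, 12.54 and 12.22 in the control spleens. Within each group the spleens had the same order by this sum as by Slc6a4. Neutrophil markers, all 14 of them detected in spleen, summed to 98350 to 162152 intensity units in OPP spleens and 37051 to 114745 in control spleens. The part of platelet or neutrophil RNA in the Slc6a4 result was not tested, and in whole organs more cells of a type and more RNA per cell cannot be told apart.

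**Figure D3:**
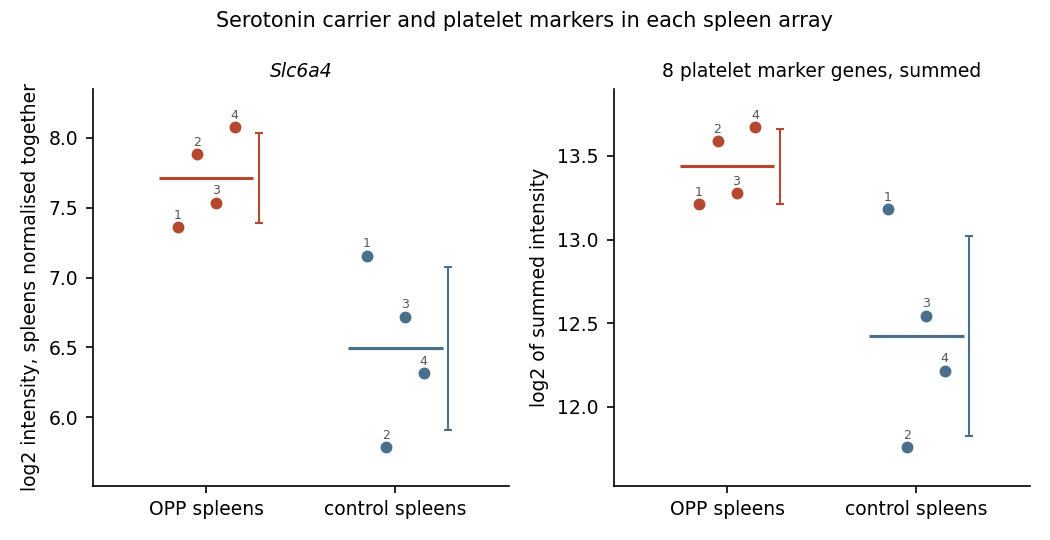
Organ-scale log2 level of Slc6a4 and log2 of the summed platelet marker level (vertical axes) in 4 OPP and 4 control spleens; points are arrays labelled by replicate, lines are means and bars are SD. OPP spleens reach 8.07 for Slc6a4 and 13.67 for the marker sum, and control spleen 2 is lowest in both, at 5.79 and 11.76.

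Slc38a2 did not differ detectably in the spleen, with 8.87, 8.93, 8.85 and 8.93 in the OPP spleens against 9.02, 9.05, 8.92 and 8.64 in the control spleens. The control values ran both above and below the OPP values, and the log2 difference was -0.01 (SE 0.10, 95% interval -0.24 to 0.21). Slc6a6 (-0.02, SE 0.10) and Slc7a5 (0.17, SE 0.12) were likewise within their spread. Slc7a8 (LAT2), the other large neutral amino acid exchanger, differed by a log2 of -0.40 (SE 0.23) with overlapping groups, and both Slc3a2 probes by under 0.1 (0.06 and -0.08). In the spleen 18 carrier probes of 17 genes were tested, 7 higher and 11 lower in sign with OPP (12 and 6 with median scaling), and their median log2 difference was -0.02 against 0.00 over all probes. At an unadjusted p under 0.01, 1 carrier probe was higher, against 1.69% of all probes called in either direction, and it was also the 1 carrier without overlap, against 3.6% of all probes. At an adjusted p under 0.05 limma called 0 carriers and 0% of all probes. An unadjusted p under 0.05 was found for 1 carrier, against 593 of all 8582 probes tested in the spleen.

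In the heart, 2 carriers passed the unadjusted threshold, both with small differences. Slc38a7, which exports glutamine and asparagine from the lysosome, was at 6.58, 6.62, 7.11 and 6.71 in the OPP hearts, against 6.26, 6.50, 6.31 and 6.21 in the control hearts. The groups did not overlap, though OPP heart 1 lay close to control heart 2. The log2 difference was 0.44 (SE 0.13, 95% interval 0.15 to 0.73, limma p = 0.00693, adjusted p = 0.194, exact permutation p = 0.0286).

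The heavy chain Slc3a2 gave opposite signs at its 2 probes in the heart. Probe scl52780.10_0-S was at 7.25, 7.39, 7.28 and 6.83 in the OPP hearts, against 7.53, 7.62, 7.65 and 7.48 in the control hearts, a log2 difference of -0.38 (SE 0.12, limma p = 0.00843, adjusted p = 0.205, exact permutation p = 0.0286) with no overlap. Probe scl000473.1_5-S was at 8.24, 8.56, 8.34 and 8.14 in the OPP hearts, against 8.12, 8.33, 8.01 and 7.98 in the control hearts, a log2 difference of 0.21 (SE 0.11, limma p = 0.0828, exact permutation p = 0.114) with overlap. No direction can therefore be given for the gene. The array background that was lower on every OPP heart moved with these differences. So did the summed level of the 9 cardiomyocyte genes, all detected, at 194645 to 207299 intensity units in OPP hearts and 185945 to 191079 in control hearts. The part of either in these differences was not tested.

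Slc1a4 differed in the heart by a log2 of -0.32 (SE 0.13, limma adjusted p = 0.304) and the glycine and proline carrier Slc36a2 by -0.25 (adjusted p = 0.364). Slc38a2 was at 8.79, 8.75, 8.88 and 8.33 in the OPP hearts, against 8.66, 8.72, 8.71 and 8.75 in the control hearts. The OPP hearts ran both above and below the narrow range of the control hearts, and the log2 difference was -0.02 (SE 0.11, 95% interval -0.26 to 0.22). Slc6a6 (0.04, SE 0.06) and Slc7a5 (0.01, SE 0.15) were within their spread as well. Of 17 carrier probes of 16 genes tested in the heart, 8 were higher and 9 lower in sign with OPP (3 and 14 with median scaling, which shifted the median of all heart probes to -0.12), and their median log2 difference was -0.02 against 0.00 over all probes. At an unadjusted p under 0.01, 1 carrier probe was higher and 1 lower, against 4.61% of all probes called, and these 2 were also the carriers without overlap, against 7.97% of all probes. At an adjusted p under 0.05 limma called 0 carriers and 0% of all probes. An unadjusted p under 0.05 was found for 3 carriers, against 1290 of all 9172 probes tested in the heart. The 2 calls under 0.01 rested on the full set of arrays. With 1 heart array left out 0 to 2 remained, and 0 without OPP heart 3 or control heart 1, 3 or 4.

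The organs were then set side by side in 1 fit of all 23 arrays normalised together, whose values are called all-array levels. For Slc38a2 the OPP change in the liver differed from that in both other organs. Its all-array levels were 8.87, 8.85 and 9.16 in the OPP livers, against 10.44, 9.93, 10.18 and 10.62 in the control livers. In the spleen they were 8.72, 8.79, 8.70 and 8.79 with OPP against 8.89, 8.91, 8.78 and 8.48 in controls, and in the heart 9.0, 8.97, 9.10 and 8.52 with OPP against 8.86, 8.93, 8.92 and 8.97 in controls. Only the control livers stood apart from the other arrays. The fit used 1 estimate of the spread for all groups, though the SD of Slc38a2 ranged from 0.04 in control hearts to 0.30 in control livers. The OPP log2 change was -1.33 in the liver and -0.01 in the spleen, a difference of -1.32 (SE 0.20, 95% interval -1.74 to -0.90, limma adjusted p = 0.00859, and 0.000843 to 0.0476 over the alternatives). Against the heart the difference was -1.31 (SE 0.20, adjusted p = 0.0099, and 0.00097 to 0.0617 over the alternatives, the highest with median scaling), and between spleen and heart it was 0.01 (SE 0.19).

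The liver had the highest mean Slc38a2 in both groups of mice, with a gap to the other organs past the adjusted limma threshold in control mice only. In OPP mice the liver exceeded the spleen by a log2 of 0.21 (SE 0.15, 95% interval -0.10 to 0.52, limma adjusted p = 0.198). Every OPP liver nevertheless lay above every OPP spleen. Over the heart the excess was 0.06 (95% interval -0.25 to 0.37, limma adjusted p = 0.715), and OPP livers and hearts overlapped. In control mice the liver exceeded the spleen by a log2 of 1.53 (SE 0.14, limma adjusted p = 9.66e-10) and the heart by 1.37 (adjusted p = 5.07e-09). Spleen and heart did not differ detectably in either group, with -0.15 in OPP mice (adjusted p = 0.329) and -0.16 in control mice (adjusted p = 0.296).

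Slc6a6 and Slc7a5 also had differences between organs at an unadjusted p under 0.01 that the adjustment did not keep. For Slc7a5 the OPP change in the liver minus that in the spleen was -1.66 (SE 0.46, limma adjusted p = 0.106), and minus that in the heart -1.48 (adjusted p = 0.186). For Slc6a6 the corresponding log2 differences were -0.57 (SE 0.18, adjusted p = 0.135) and -0.63 (adjusted p = 0.147). These tests share the liver arrays. Between liver and spleen 10 carrier probes could be compared, and limma called 1 at an adjusted p under 0.05, against 0.133% of all probes, and 3 at an unadjusted p under 0.01, against 5.88%. Between liver and heart it called 1 of 12 at the adjusted threshold, against 0.0716% of all probes, and 3 at the unadjusted one, against 4.24%. Between spleen and heart it called 0 of 13 carriers and 0% of all probes at the adjusted threshold and 1 at the unadjusted one, against 0.721%. That probe, also the only carrier with an unadjusted p under 0.05 there (against 199 of all 7209 probes), was Slc38a7, with a difference of -0.61 (SE 0.20, adjusted p = 1).

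Most carriers that could be tested differed between organs. Among control mice 26 carrier probes of 24 genes were tested between liver and spleen, of which 13 were higher and 11 lower in liver at an adjusted p under 0.05, where 38.7% of all probes were higher and 47.8% lower. Between liver and heart 14 of 22 were higher and 4 lower in liver, against 34.9% and 48.2% of all probes, and between spleen and heart 12 of 21 were higher and 5 lower in spleen, against 40.4% and 41.8%. In OPP mice the corresponding counts were 10 higher and 12 lower of 25, 10 and 6 of 21, and 12 and 7 of 22. Over all probes in OPP mice they were 3328 and 4685 of 9317, 3091 and 4688 of 9607, and 4179 and 4290 of 10331. Since most probes differed between organs, these shares say little about the carriers as a group, and the members are described singly. Where a carrier was not detected in the dimmer organ, its fold is a lower bound, set against the lowest signal of any detected probe on those arrays.

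The liver had the highest signal of Slc38a3 and Slc38a4, of the betaine carrier and of the cystine heavy chain. Slc38a3, which exchanges glutamine in hepatocytes, was at all-array levels of 12.16, 11.89, 11.58 and 11.34 in control livers, at least 55.2-fold higher than in spleens (limma adjusted p = 1.97e-17), and exceeded control hearts, at 6.75, 6.26, 5.98 and 6.51, by a log2 of 5.37. Slc6a12, the betaine carrier, was at 11.19, 11.15, 11.13 and 11.06 in control livers, at least 36.1-fold higher than in spleens and at least 41.6-fold higher than in hearts. The gap of these carriers to the other organs was far wider than the spread among the control livers.

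The brighter probe of Slc38a4 was at least 33-fold higher in liver than in spleen and exceeded heart by a log2 of 2.97, and its dimmer probe was at least 2.96-fold higher than in spleen and at least 3.42-fold higher than in heart. The heavy chain Slc3a1, which serves cystine uptake, was at least 15.6-fold higher than in spleen and at least 18-fold higher than in heart. Slc7a2, which brings in arginine, was at least 6.5-fold higher than in spleen and at least 7.48-fold higher than in heart. Slc1a2, a glutamate carrier, was at least 3.67-fold higher than in spleen and at least 4.23-fold higher than in heart. The lysosomal Slc38a7 was also highest in liver, above spleen by a log2 of 1.33 and above heart by 1.07.

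The spleen had the highest signal of Slc38a5, Slc7a5 with its heavy chain, and the glycine carrier Slc6a9. Slc38a5, a second carrier of glutamine and glycine, was at all-array levels of 12.22, 11.91, 12.27 and 12.14 in control spleens. It was at least 40.9-fold higher in spleen than in liver (limma adjusted p = 1.43e-20), and it exceeded heart by a measured log2 of 6.55, where only 1 of 4 control arrays detected it, so that this difference is set against signal near background. Slc7a5 was at 7.12, 6.58, 8.30 and 7.73 in control livers, 10.79, 10.54, 11.14 and 10.65 in control spleens, and 6.71, 7.03, 6.70 and 6.89 in control hearts. Its log2 difference was -3.35 for liver minus spleen and 3.95 for spleen minus heart. The 4 spleens lay above every control array of the other organs.

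Both Slc3a2 probes were highest in spleen, with an excess over heart of 2.50 (scl52780.10_0-S) and 1.57 (scl000473.1_5-S) on the log2 scale. For liver minus spleen the log2 difference was -1.20 at probe scl000473.1_5-S, and the level was at least 11.1-fold higher in spleen at the other probe. Between control livers and hearts the probes went opposite ways. Means were 8.68 and 8.30 at scl000473.1_5-S, while the other probe was detected in the hearts and not in the livers. Slc6a9, which brings glycine into erythroid cells for haem synthesis, was at 9.58, 9.68, 9.90 and 10.02 in control livers, 11.52, 11.17, 11.59 and 10.96 in control spleens, and 6.40, 6.31, 6.63 and 6.68 in control hearts. The 3 organs did not overlap, with log2 differences of -1.51 for liver minus spleen and 3.29 for liver minus heart. The glutamine carrier Slc1a5 (ASCT2) was at least 3.43-fold higher in spleen than in liver and exceeded heart by a log2 of 1.78, and Slc7a8 exceeded heart by a measured 2.17, again with detection on only 1 of 4 control hearts.

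Spleens also had RNA of blood cells and of pancreas, an organ that lies against them and is rich in amino acid carriers. Of 10 erythroid genes on the array 9 were detected in spleen, with Epb42 on 0 arrays, and their sum was 98811 to 108596 intensity units with OPP and 89606 to 114075 in controls. On the all-array log2 scale the summed erythroid markers were 13.73 to 15.11 in control livers, 16.46 to 16.85 in control spleens and 15.24 to 15.60 in control hearts. The pancreas sum was 10.48 to 11.33 in control livers, 17.15 to 18.53 in control spleens and 8.74 to 8.81 in control hearts. The part of either source in the spleen levels of these carriers was not tested.

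The heart had the highest signal of Slc6a8, which takes in creatine for the phosphocreatine store of muscle, and of Slc36a2. Slc6a8 was at 8.13, 7.97, 8.56 and 8.30 in control livers, 6.60, 6.73, 6.18 and 6.54 in control spleens, and 11.63, 11.54, 11.54 and 11.50 in control hearts. The 3 organs were separate, with log2 differences of -3.31 for liver minus heart (SE 0.12, limma adjusted p = 7.86e-17) and -5.04 for spleen minus heart. Slc36a2 was at 7.60, 7.81, 7.97 and 7.94 in control hearts, at least 2.07-fold higher than in liver and at least 3.66-fold higher than in spleen.

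**Figure D4:**
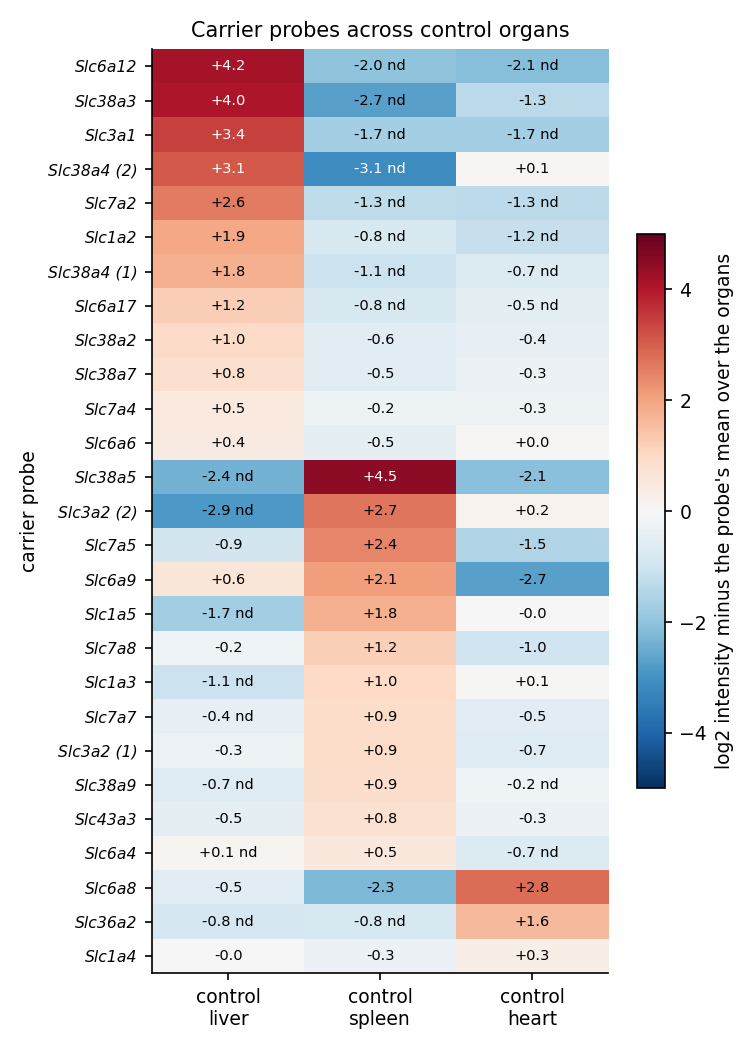
All-array log2 level of 27 carrier probes in control livers, spleens and hearts, each row centred on the mean of its 3 organ means (colour, log2 units); "nd" marks an organ with no control array that detected the probe. By mean, 12 probes were highest in liver, 12 in spleen and 3 in heart.

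Slc6a6 was detected on every array and was bright in each organ. Its all-array levels were 11.75, 11.60, 11.17 and 11.53 in control livers, 10.84, 10.68, 10.38 and 10.42 in control spleens, and 11.19, 11.07, 11.21 and 10.97 in control hearts. Livers lay above all spleens, and 1 control liver fell among the hearts. The liver exceeded the spleen by a log2 of 0.93 and the heart by 0.40 (limma adjusted p = 0.00487), and the log2 difference of spleen minus heart was -0.53.

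Other genes of amino acid handling were counted beside the carriers, each gene at its brightest tested probe. In the liver, genes of amino acid breakdown and the urea cycle had 5 higher and 21 lower signs of 26 tested with OPP, with a median log2 difference of -0.15 against -0.03 over all probes. At an unadjusted p under 0.01, 2 were lower and 0 higher, against the 2.92% of all probes. Csad, an enzyme of taurine synthesis, differed by -1.41 (SE 0.35, limma adjusted p = 0.287), and Ass1, the argininosuccinate synthase of the urea cycle, by -0.53 (adjusted p = 0.316), with -0.07 at its dimmer probe. The aminotransferase Got2 differed by 0.79 at a dimmer probe and by -0.12 at its brighter one. The same list had 5 higher and 14 lower signs of 19 in the spleen, with 1 gene called, the glutamine synthetase Glul (a log2 difference of -0.40), against 1.69% of all probes. It had 10 and 9 of 19 in the heart, with 1 called, Fah (0.46), which ends tyrosine breakdown, against 4.61% of all probes.

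Targets of the amino acid response factor ATF4, a list that does not hold Slc38a2, had 6 higher and 8 lower signs of 14 tested in the liver, 10 and 12 of 22 in the spleen and 14 and 9 of 23 in the heart. At an unadjusted p under 0.01, 0 were called in liver and spleen and 2 in heart, against 4.61% of all heart probes. They were the transcription factor Cebpb (a log2 difference of 0.53) and the lipoprotein receptor Vldlr (0.32). Genes of lysosomal amino acid sensing upstream of the growth kinase complex mTORC1 had 0 calls among 9, 10 and 11 tested in liver, spleen and heart. Amino acid carriers outside the 7 families had 0 calls among 7 in the liver and 8 in the spleen and 1 among 9 in the heart, the mitochondrial glutamate carrier Slc25a22 (0.32), against 4.61% of all heart probes. With limma, 0 genes of these lists passed the adjusted threshold.

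The genes whose signal varied most like Slc38a2 among livers, outside the carriers, were found by Pearson's r over the 7 liver arrays after subtraction of group means, as a description of arrays that share their background and normalisation. They were the sterol synthesis enzyme Msmo1 (r = 0.975), Nat8f4 (r = 0.956), the adhesion gene Nectin3 (r = 0.954) and 2 probes with no symbol. Their own OPP log2 differences ranged from -0.70 for Msmo1 to -0.04.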

How the data were processed

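RNA of 23 organs was measured on 1 array each, and samples were grouped from the submitters' labels. Per the file headers and values, the deposited files hold each probe's non-normalised mean bead intensity with a detection p-value, exported by the authors with BeadStudio (the submitters' processing notes give version 1.5.1.3), and the authors' rank invariant normalised intensity. Background was removed from the non-normalised intensities with nec of limma 3.58.1 (R 4.3.3, offset 16). Arrays were quantile normalised, within an organ for OPP against control and over all 23 arrays for comparisons between organs, and tested on the log2 scale with limma (trended eBayes, two-sided, Benjamini-Hochberg over all tested probes). Tested probes were detected (p under 0.01) on 3 or more arrays of a group, and for the organ interaction in both organs. Single carriers were also given a two-sided exact permutation test. The steps were tested on simulated data. Organs were taken as independent.

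The carriers and gene lists were chosen with earlier results of these data known. Named were all Slc38a2 probes, carriers at an unadjusted p under 0.01 for OPP or an interaction, the 5 of smallest p in each direction for each pair of control organs, all probes of such genes, and 16 genes listed by name (Slc38a1, Slc38a3, Slc38a4, Slc3a2, Slc7a5, Slc7a8, Slc7a1, Slc7a2, Slc7a11, Slc1a5, Slc1a4, Slc1a2, Slc6a6, Slc6a4, Slc43a1 and Slc36a1). The alternatives were the authors' normalised values (floor 10), median scaling, no background correction, an offset of 50, no filter, detection on every array of a group, all 23 arrays in 1 fit, a variance per organ, control arrays alone, OPP in place of control arrays, the methods' t-test, the replicate number as a block, control livers 3 and 4 left out, and each array left out. The number of arrays limits the precision.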

Additional observations from a re-analysis of the deposited data

Results flagged for a closer look

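The OPP change of Slc38a2 differed between organs by the interaction test, in the fit where the 6 groups share 1 estimate of the spread. The liver change minus the spleen change was -1.32 on the log2 scale (limma adjusted p = 0.00859), and the liver change minus the heart change was -1.31 (adjusted p = 0.0099).

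Single arrays that stood apart from their group were sought in 74 groups of 4 arrays, where chance picks out about 1 group in 20, and 2 were found. Slc1a4 in OPP spleen 4 was at an organ-scale log2 level of 6.50, against 6.75 to 6.80 in the other OPP spleens, a gap of 0.835 of the range of the group. Slc6a6 in OPP spleen 1 was at 10.67, against 10.49 to 10.51 in the others, a gap of 0.901 of the range.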

How the results depend on the processing

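Slc38a2 in the liver kept its direction and an unadjusted limma p under 0.01 in all alternatives, with log2 differences of -1.53 to -1.23 and, with 1 array left out, -1.62 to -1.37 (adjusted p 7.35e-05 to 0.74). Its interaction against the heart was -1.38 with an adjusted p of 0.0617 under median scaling, which left 0 carriers called there in place of 1. At the unadjusted threshold the liver count of 2 became 1 with median scaling and with the methods' t-test, 3 without the filter and with all 23 arrays in 1 fit, and 1 to 2 with 1 array left out. The spleen count of 1 became 2 without the filter and 0 with the t-test. The heart count of 2 became 1 with the authors' values, 0 with the t-test and 0 to 2 with 1 array left out. The share of all probes called is not given here for these settings. The moved counts therefore say nothing about the carriers as a group. At the adjusted threshold, where the counts were 0, all 23 arrays in 1 fit called 3 carriers in the liver (Slc38a2, Slc6a6 at 0.013 and Slc7a5 at 0.0135) among 426 of 6419 probes. In the spleen it called 1, Slc6a4, as did median scaling, and the share of all spleen probes called there is not given here. Without the filter, which let in probes too dim to be detected, the organ counts of 24, 18 and 17 became 48, 46 and 30. More probes of every kind were tested then, so this rise says nothing about the carriers as a group. With 1 array left out the interaction counts of 1 became 1 to 2, with 2 without OPP liver 1 or 2 for both and without control liver 2 for the spleen. For these interaction fits, too, the share of all probes called is not given here.

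The r between the deviations of same-numbered OPP and control arrays was 0.02 to 0.07 in liver, -0.29 to 0.32 in spleen and 0.01 to 0.45 in heart, so that in no organ was every pair above 0.1, though 2 of 4 pairs in the heart and 1 in the spleen were above 0.3. The arrays were taken to share only a number, and the replicate number as a block left 1 carrier in the liver in place of 2, with Slc38a2 at -1.37 (adjusted p = 0.566) and Slc6a6 no longer past the threshold. The cause of these changes was not tested. Slc6a4 ranged over 0.83 to 1.45 and was not past the unadjusted threshold in the t-test. Median scaling turned the sign split between liver and heart controls to 13 higher and 9 lower, against 16 and 6, with the median of all probes at -0.86 against -0.28, and that of the liver and heart interaction to 5 and 7 against 3 and 9. It turned that of the spleen and heart interaction to 12 and 1 against 6 and 7, and of the liver and spleen interaction to 2 and 8 against 3 and 7.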
